A study of Mus musculus with 18 samples.

Results

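The genes described here are 32 targets of the hypoxia-inducible factors (HIF) that act outside sugar metabolism, read in natural killer (NK) cells that lacked Hif1a, Ahr or both. They were chosen by name, from a list of genes known to be switched on by HIF in low oxygen: enzymes that modify collagen, proteins of lipid droplets, enzymes and transporters of energy and acid balance, transcriptional regulators, and genes of growth control and signalling. The choice was made with earlier results of these data known, so the counts below describe this list only. All 32 had an identifier in the tables of 56953 genes, and all 32 were among the 16743 genes that passed the filter on counts. Of these 32, Tmem45a and Ppfia4 reached the filter's level of 0.181 CPM (counts scaled to library size) in 0 of the 6 libraries with Hif1a deleted, so both were tested because of their levels in the other libraries, and Rragd reached it in 1 of those 6.

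NK cells, innate lymphocytes able to kill tumour cells and virus-infected cells, were isolated from mouse spleen. They spent 7 days in an atmosphere of 1% oxygen in medium with interleukin 2 (IL-2, 1700 U/ml), the cytokine that sustains them in culture. The 18 RNA libraries form 6 groups of 3 biological replicates. Hif1a flox cells (Hif1a fl/fl), Ahr flox cells (Ahr fl/fl) and Hif1a Ahr flox cells (both genes fl/fl) carry gene copies flanked by recombination sites and no Cre. Hif1a KO, Ahr KO and Hif1a Ahr KO cells carry the same alleles with Ncr1-iCre, a recombinase driven by the NK receptor gene Ncr1, which removes the flanked part in cells that have expressed Ncr1. All 6 groups were kept in low oxygen, so a level is never compared here with one in normal oxygen. No group carries Cre alone, so within a line an effect of Cre and one of the deletion cannot be told apart.

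As background, HIF is a pair of proteins. Its alpha subunit (HIF-1 alpha from Hif1a, HIF-2 alpha from Epas1) is marked for destruction by oxygen-dependent prolyl hydroxylases and accumulates when oxygen is scarce, then binds the partner Arnt and the short sequence known as the hypoxia response element in its target genes. In lymphocytes HIF-1 is best known for raising glucose uptake and glycolysis. The genes followed here belong to other arms of the same response, and several of them can also be switched on by other factors. The aryl hydrocarbon receptor (AhR, from Ahr) is a ligand-activated factor that uses the same partner, Arnt.

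The hypoxia response element has the core ACGTG or GCGTG, and GCGTG is also the core of the element that AhR binds. Both were searched on both strands of the 250 bases upstream of each start site in RefSeq promoter windows, which covered 25 of the 32 genes. The windows are of mouse build GRCm38.p6, while the counts were made on GRCm39. Bhlhe40, Ndrg1, Nrn1, Plod2, Slc6a8, Tpd52 and Zfp395 had no window. A core was present in at least 1 window of 23 of the 25 genes (92%), against 58.8% of the 11041 tested genes that had a window and 41.5% of all 27025 genes with one. Some genes have several windows. Counted by window, a core was in 27 of 36 windows of these genes (75%), against 38.6% of all 32851 windows. The windows of the 32 also held more CG pairs, with a median of 17 against 6 over all 32851 windows, and among windows with at least 10 CG pairs 25 of 28 (89.3%) held a core, against 64.2% of all such windows. By dependence, a core was found in 8 of 8 genes that were mostly lost after Hif1a deletion, 10 of 11 that were partly lost and 5 of 6 that did not fall in both lines (terms defined below). A match describes these letters and is not evidence of binding.

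The windows of 6 genes show that range, with the core in capitals on either strand, each written 5′ to 3′ along the gene. Ankrd37 (chr8:45999851-46000100, minus strand), P4ha1 (chr10:59323046-59323295, plus strand) and Fam162a (chr16:36071562-36071811, minus strand) were mostly lost, Errfi1 (chr4:150854820-150855069, plus strand) also fell with Ahr deletion, Wsb1 (chr11:79254696-79254945, minus strand) did not pass the test, and Mif (chr10:75860278-75860527, minus strand) fell strongly without a core in its window. Where both strands of CACGTG match, it counts as a match on each.
Ankrd37: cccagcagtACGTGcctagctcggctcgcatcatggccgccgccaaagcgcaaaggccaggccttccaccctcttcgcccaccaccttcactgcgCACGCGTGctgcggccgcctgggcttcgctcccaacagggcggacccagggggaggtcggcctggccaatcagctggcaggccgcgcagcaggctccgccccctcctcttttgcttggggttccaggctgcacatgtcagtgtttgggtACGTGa
P4ha1: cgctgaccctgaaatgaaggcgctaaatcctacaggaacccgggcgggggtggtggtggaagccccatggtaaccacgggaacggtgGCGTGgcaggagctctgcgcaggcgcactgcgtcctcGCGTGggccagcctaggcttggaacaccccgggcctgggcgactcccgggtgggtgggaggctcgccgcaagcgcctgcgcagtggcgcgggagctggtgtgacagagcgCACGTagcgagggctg
Fam162a: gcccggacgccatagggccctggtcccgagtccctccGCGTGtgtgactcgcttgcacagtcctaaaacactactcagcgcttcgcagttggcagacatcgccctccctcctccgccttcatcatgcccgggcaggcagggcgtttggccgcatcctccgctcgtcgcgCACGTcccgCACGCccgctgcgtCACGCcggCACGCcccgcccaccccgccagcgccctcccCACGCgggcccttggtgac
Errfi1: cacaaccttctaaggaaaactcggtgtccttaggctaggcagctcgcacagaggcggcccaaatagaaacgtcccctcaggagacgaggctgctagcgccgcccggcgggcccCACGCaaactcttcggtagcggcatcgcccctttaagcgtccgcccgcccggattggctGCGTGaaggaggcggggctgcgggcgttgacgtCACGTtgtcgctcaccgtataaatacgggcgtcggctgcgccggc
Wsb1: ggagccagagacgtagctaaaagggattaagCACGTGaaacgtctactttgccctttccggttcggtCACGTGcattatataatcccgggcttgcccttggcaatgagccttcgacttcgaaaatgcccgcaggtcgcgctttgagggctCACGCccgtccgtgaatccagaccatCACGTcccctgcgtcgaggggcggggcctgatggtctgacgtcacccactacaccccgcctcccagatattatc
Mif: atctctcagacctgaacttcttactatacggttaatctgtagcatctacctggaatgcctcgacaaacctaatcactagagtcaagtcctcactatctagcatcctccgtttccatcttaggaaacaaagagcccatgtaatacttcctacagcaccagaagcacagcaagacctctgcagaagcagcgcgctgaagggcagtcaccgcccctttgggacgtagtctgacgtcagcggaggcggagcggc
These windows held 4 matches in Ankrd37, 3 in P4ha1, 6 in Fam162a, 3 in Errfi1, 6 in Wsb1 and 0 in Mif. The other gene with 0 matches was Rragd. Errfi1 and Wsb1 each also had a window with 0 matches, which is not printed. Over the genes with a window the median log2 change in Hif1a KO cells was -1.18 for the 23 with a core and -1.34 for the 2 without. The first median is the value of Ppfia4, which did not pass the test and entered it only through libraries with Hif1a intact. The second lies between Mif (-2.47) and Rragd (-0.21), the latter near the limit of detection. These medians therefore cannot compare genes with and without a core. The longer letters TNGCGTG, searched after the values were seen, were present in 5 of 25 genes (20%: Ak4, Ero1a, Errfi1, P4ha1 and Sap30) and in 7.51% of tested genes with a window. A match in any window of a gene counted. The share among windows of like CG content was not counted for these letters, so the percentages are not a like comparison.

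Library totals were 54420649 to 55732940 estimated counts. Gene-level Hif1a RNA was not lower after deletion: flox cells of that line had 60.3 ± 4.28 CPM and KO cells 179.9 ± 32 (mean ± SD, n = 3). A count over the whole gene includes transcripts without the deleted part and therefore checks neither deletion, and the same holds for Ahr, with 76.5 ± 2.37 CPM in flox cells of the Ahr line and 92.1 ± 4.38 in its KO cells. All 10 NK markers were detected in each library, with summed levels of 20600 to 24900 CPM for Hif1a flox and 14300 to 16100 for Hif1a KO, 18800 to 23900 and 19400 to 20500 in the Hif1a Ahr line, and 19100 to 26000 and 25700 to 30500 in the Ahr line (flox, then KO). Of these 10, 4 fell and 4 rose in Hif1a KO cells. In Hif1a Ahr KO cells 0 fell and 4 rose, and in Ahr KO cells 0 fell and 2 rose. Of all genes tested, 17.8% fell and 17.6% rose in Hif1a KO cells. In Hif1a Ahr KO cells these shares were 16.5% and 14.8%, and in Ahr KO cells 4.78% and 2.13%. The 8 T cell markers summed to 78.2 to 114 CPM for Hif1a flox and 22.2 to 35.5 for Hif1a KO, 130 to 146 and 22.9 to 58.1 in the Hif1a Ahr line, and 101 to 123 and 51.5 to 56 in the Ahr line. Taken singly, 3 of the 8 fell in Hif1a KO, 2 in Hif1a Ahr KO and 2 in Ahr KO cells, and 0 rose. Their median log2 changes were -0.33, 0.13 and 0.79, so sum and median went opposite ways in both lines that delete Ahr. The 9 myeloid markers summed to 101 to 160 CPM for Hif1a flox and 90.6 to 111 for Hif1a KO, 85.9 to 127 and 68.8 to 85.2 in the Hif1a Ahr line, and 124 to 142 and 134 to 170 in the Ahr line. Most of that sum came from Itgam and Cd68, and marker by marker the list fell further: of the 8 tested, 6 fell and 1 (Cd68) rose in Hif1a KO cells (median log2 change -3.25), 7 fell in Hif1a Ahr KO cells (median -3.10), and 1 (Cd68) fell in Ahr KO cells (median -0.04). Csf1r, the receptor for macrophage colony-stimulating factor, went from 2.59 ± 1.53 to 0.272 ± 0.157 CPM in the Hif1a line (mean ± SD, n = 3), and up to 5 of the 9 were at 0 in a library of either group with Hif1a deleted. The 6 B cell markers, nearly all of whose sum was Ighm, summed to 69.5 to 84.1 CPM for Hif1a flox and 74.9 to 101 for Hif1a KO, 52.5 to 65.9 and 99.4 to 125 in the Hif1a Ahr line, and 76.7 to 87.5 and 96.6 to 129 in the Ahr line. Of the 2 B cell markers tested, Ighm rose and Cd79b fell in both lines that delete Ahr, and neither was called in the Hif1a line. The 8 stromal and endothelial markers summed to 298 to 327 and 220 to 249 CPM in the Hif1a line, 251 to 317 and 226 to 284 in the Hif1a Ahr line, and 252 to 279 and 287 to 342 in the Ahr line. The 6 erythroid and megakaryocyte markers summed to 3.71 CPM or less in every library. In bulk samples fewer cells of a type and less RNA per cell cannot be told apart, and the part of these marker differences in the results below was not tested.

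Most of these HIF targets fell where Hif1a was deleted, to very different depths. Fewer fell where Ahr alone was deleted, though still a larger share than among all genes. In Hif1a KO against Hif1a flox cells 24 of the 32 fell, 1 rose (Plod1) and 7 did not pass the test. A gene is said here to have risen or fallen at an adjusted p under 0.05 (edgeR's quasi-likelihood F test, Benjamini-Hochberg adjustment over the 16743 genes), and changes are log2 changes of KO against flox with standard error (SE). Of all genes tested, 17.8% fell and 17.6% rose in that comparison. The median change was -0.96 over the 32 and -0.01 over all genes. In Hif1a Ahr KO against Hif1a Ahr flox cells 24 of 32 fell and 0 rose, beside 16.5% and 14.8% of all genes, with medians of -1.05 and -0.02. In Ahr KO against Ahr flox cells 4 of 32 fell (Plod2, Errfi1, Plod1 and Tpd52) and 0 rose, beside 4.78% and 2.13% of all genes, with medians of -0.03 and 0.00. At an unadjusted p under 0.05, edgeR's test gave 10 of 32 in the Ahr line, 6 lower and 4 higher. Of all 16743 genes, 1966 were lower and 1466 higher at that level. DESeq2 and limma voom also called 0 of 32 higher. With same-numbered replicates as pairs, Bhlhe40 and Cited2 were called higher, beside 1033 of 16743 genes. Those pairs also added P4ha2 and Ccng2 as lower, beside 1388 of 16743 genes called lower. In the fit of the Ahr line's 6 libraries alone, Bhlhe40 and Ndrg1 were called higher, beside 705 of 15565 genes. That fit also added P4ha2 as lower, beside 994 of 15565 genes called lower. Limma voom added P4ha2 as lower too, beside 782 of 16743 genes. With libraries scaled to their totals alone, 22 of 32 fell in Hif1a KO cells, Errfi1 and Ccng2 being the 2 that lost the call. That scaling also moved the share of lower genes among all called genes from 50.2% to 34.4%.

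**Figure D1:**
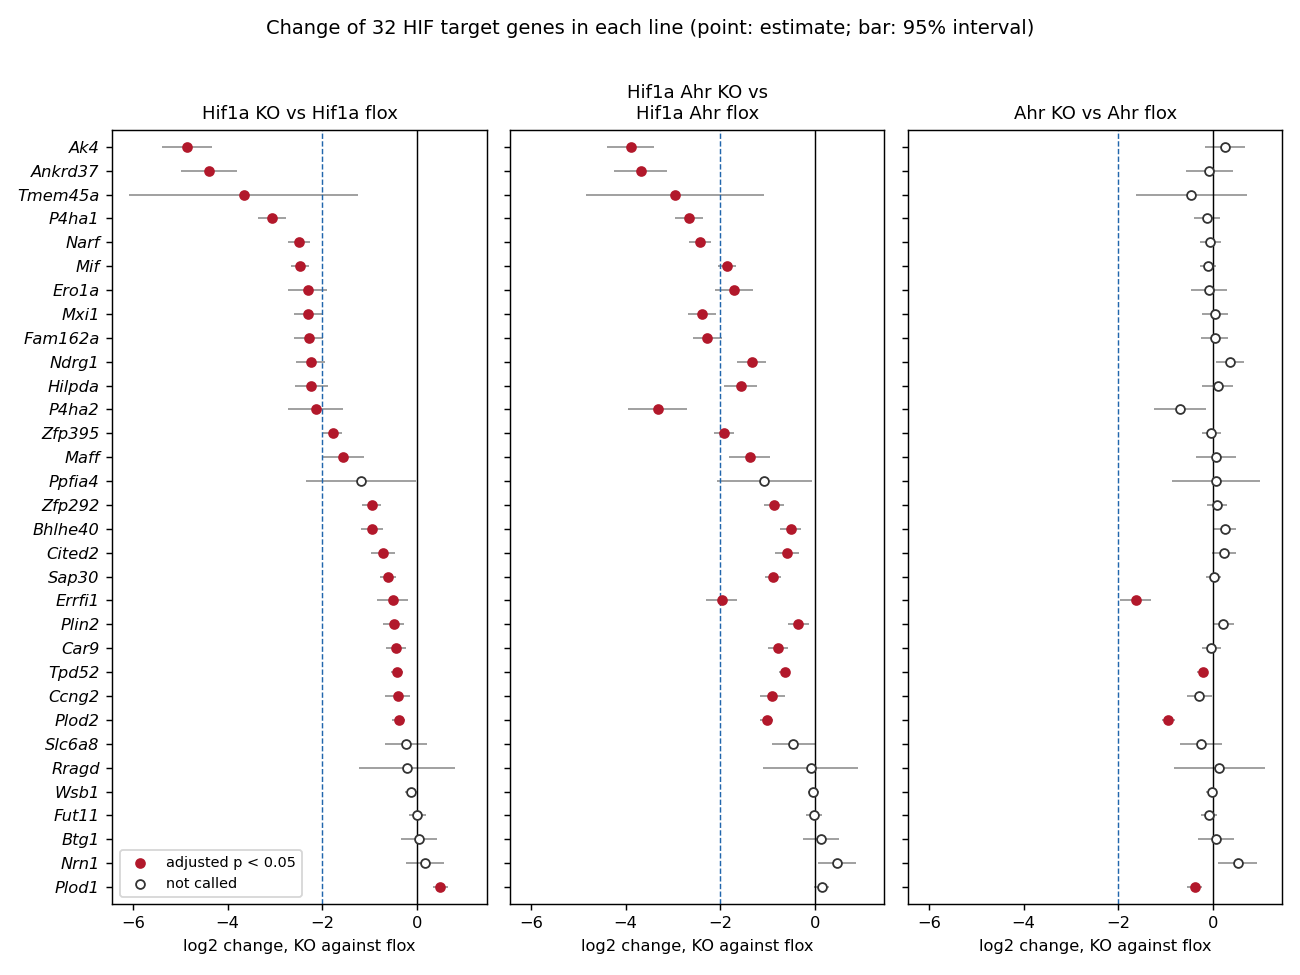
Log2 change of KO against flox for the 32 genes in the Hif1a, Hif1a Ahr and Ahr lines (points, estimates; bars, 95% intervals; filled, adjusted p under 0.05; dashed line, a log2 change of -2). The genes are ordered by their change in Hif1a KO cells, from Ak4 at -4.86 to Plod1 at 0.49, and the estimates of the Ahr line lie near 0 apart from a few such as Errfi1 at -1.63 and Plod2 at -0.95.

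The level left after deletion ranged widely. Among the 24 that fell in Hif1a KO cells it ran from 3.44% of the flox level (Ak4) to 76.2% (Plod2), with a median of 25.8%, and among the 24 that fell in Hif1a Ahr KO cells from 6.73% (Ak4) to 78.4% (Plin2), with a median of 32.1%. The 3 KO libraries lay below the 3 flox libraries for 26 of 32 in the Hif1a line and 24 of 32 in the Hif1a Ahr line, beside 25.1% and 19.7% of all genes. In the Ahr line the KO libraries lay below the flox libraries for 7 of 32 and above them for 4, beside 15.3% and 13.7% of all genes. The log2 changes of the 32 in these lines, which share no library, had a Pearson correlation across genes of 0.92 and a Spearman correlation of 0.905, against a Pearson correlation of 0.621 over all 16743 genes. Genes are not independent replicates, and these values are a description. The 32 include Tmem45a and Ppfia4, which entered the test only through libraries with Hif1a intact, and no correlation without them was computed. The list was also chosen with earlier results known, so its Pearson correlation and that of all genes are not a like comparison.

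Kinds of dependence were set apart by a rule on both lines that delete Hif1a. The Hif1a Ahr line also deletes Ahr, so the rule does not isolate the part of Hif1a. A gene counted as mostly lost if it fell in both lines and kept 25% or less of its flox level in each (a log2 change of -2 or below). It counted as partly lost if it fell in both lines but kept more in at least 1. By that rule 8 of 32 were mostly lost (Ak4, Ankrd37, Tmem45a, P4ha1, Narf, Mxi1, Fam162a and P4ha2), beside 0.991% of all genes. Tmem45a is there on few counts and entered the test only through libraries with Hif1a intact. Without it and Ppfia4, 7 of 30 were mostly and 16 partly lost, and 23 of 30 fell in Hif1a KO and in Hif1a Ahr KO cells (medians -0.84 and -0.96). Of the 32, 16 were partly lost, beside 7.99% of all genes, and the remaining 8 (Btg1, Fut11, Nrn1, Plod1, Ppfia4, Rragd, Slc6a8 and Wsb1) did not fall in both. Just inside it lay P4ha2 (-2.14 ± 0.27 in the Hif1a line) and Fam162a (-2.29 ± 0.14 and -2.28 ± 0.14), and just outside it Zfp395 (-1.79 ± 0.10 and -1.93 ± 0.10). Mif, Ero1a, Ndrg1 and Hilpda passed -2 in the Hif1a line but not in the Hif1a Ahr line. With the boundary at -1 the rule gave 14 mostly and 10 partly lost, and with -3 it gave 2 and 22. Of the partly lost genes, Errfi1, Plod2 and Tpd52 also fell in Ahr KO cells. Errfi1 and Plod2 changed more there (-1.63 and -0.945) than in Hif1a KO cells (-0.519 and -0.392).

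**Figure D2:**
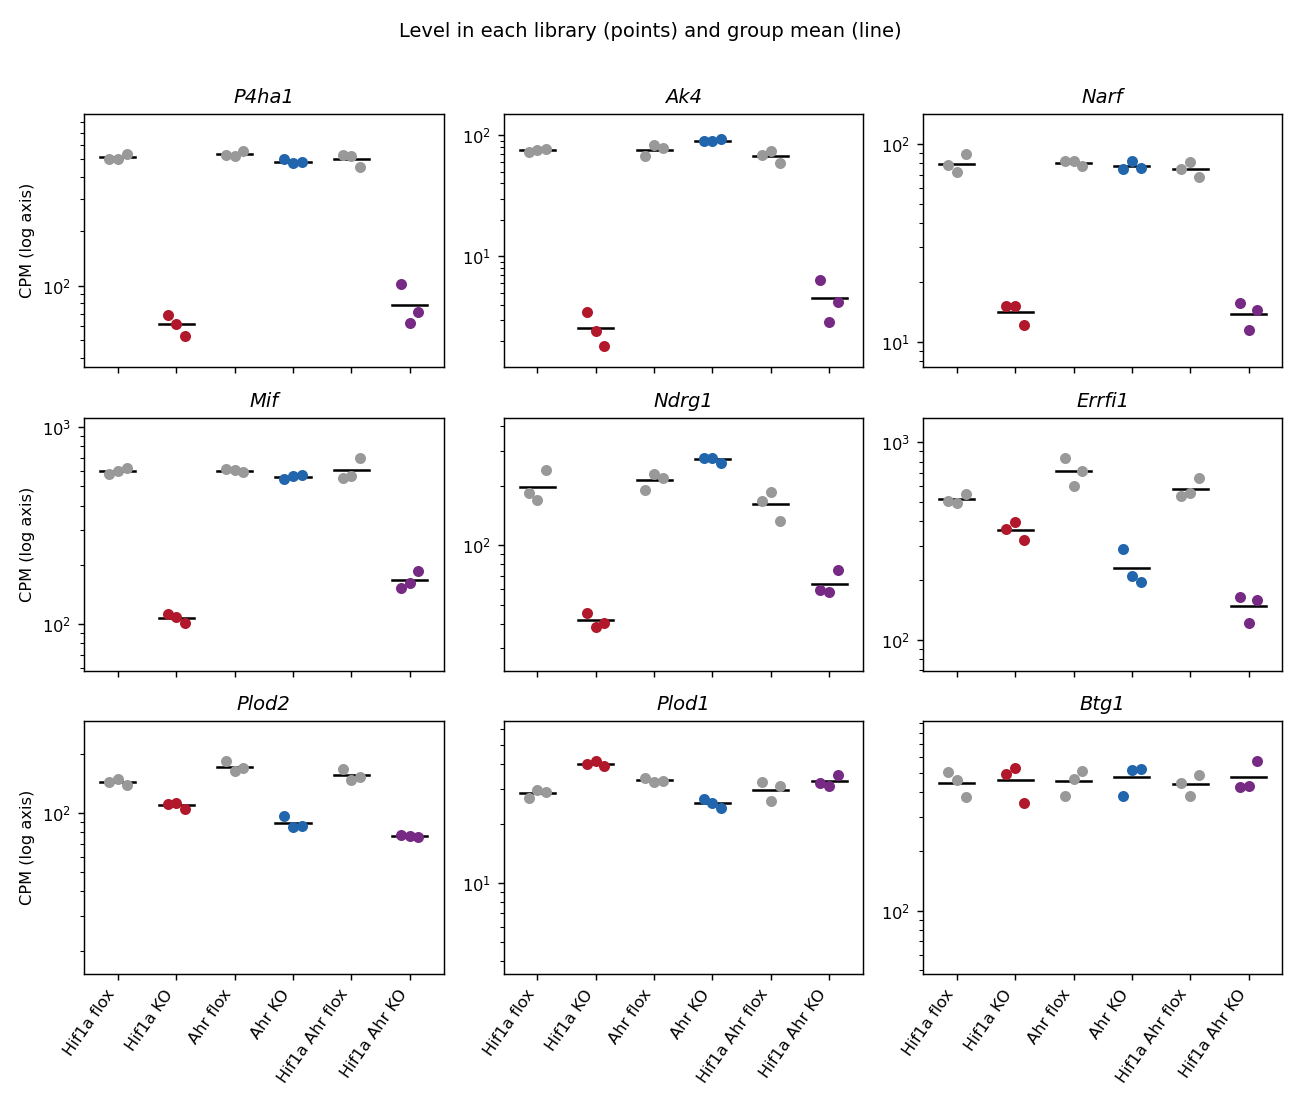
CPM on a log axis in each of the 18 libraries (points, 3 per group; bar, group mean) for 9 of the genes: P4ha1, Ak4 and Narf as mostly lost, Mif, Ndrg1, Errfi1 and Plod2 as partly lost, and Plod1 and Btg1 as not lost. The Hif1a KO and Hif1a Ahr KO points of P4ha1, Ak4 and Narf lie far below all 12 others, those of Errfi1 and Plod2 are lowest where Ahr was deleted too, and those of Btg1 lie among the others.

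Among the 32 genes, no difference in starting level between the lines passed the test. Of the 32, 0 differed between the 3 flox groups (edgeR's F test over all 3, smallest adjusted p = 0.344, for Plod2). At an unadjusted p under 0.05 that test gave 6 of the 32, and the share of all genes at that level was not counted. DESeq2 and limma voom also called 0. Over all genes 0.245% differed. Outside the 32, Ahr RNA itself read 27.7 to 39.3 CPM in the Hif1a flox libraries. It read 73.8 to 78.5 CPM in the Ahr flox and 52.2 to 78 in the Hif1a Ahr flox libraries. The part of this Ahr level in the comparisons across lines was not tested.

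Genes of collagen modification and disulfide formation in the endoplasmic reticulum were among the most and the least dependent. P4ha1 and P4ha2 encode the catalytic subunits of the prolyl 4-hydroxylases that stabilise collagen. P4ha1 read 501, 503 and 535 CPM in the 3 Hif1a flox libraries and 68.7, 61.4 and 52.95 in the Hif1a KO libraries. In the Hif1a Ahr line it read 528, 522 and 450 CPM and, after deletion, 102, 61.98 and 71.8. The KO libraries were all far below the flox libraries, and P4ha1 fell by 3.07 ± 0.14 and 2.67 ± 0.14 (adjusted p = 6.33e-11 and 3.34e-10). In the Ahr line it read 526, 518 and 554 CPM in flox and 499, 476 and 481 in KO libraries, where the change did not pass the test (-0.14 ± 0.13; adjusted p = 0.634). P4ha2 went from 51.1 ± 1.82 to 11.6 ± 2.82 CPM in the Hif1a line and from 57.1 ± 12 to 5.701 ± 2.78 in the Hif1a Ahr line (mean ± SD, n = 3), changes of -2.14 ± 0.27 and -3.32 ± 0.29. In Ahr KO cells P4ha2 stood at -0.70 ± 0.26 (adjusted p = 0.131). It passed as lower in the fit of the Ahr line's 6 libraries alone (adjusted p = 7.84e-05), with limma voom (0.0220), with same-numbered replicates as pairs (0.0339) and without Hif1a Ahr KO replicate 2 (0.0160).

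Ero1a encodes the oxidase that drives disulfide bond formation through protein disulfide isomerase. It read 739, 654 and 882 CPM in the Hif1a flox libraries and 165, 126 and 167 in the Hif1a KO libraries. The Hif1a Ahr line had 739, 824 and 458 CPM in flox and 209, 238 and 170.3 in KO libraries, and in the Ahr line 764, 848 and 827 (flox) and 776, 791 and 728 (KO). The ranges of KO and flox did not overlap in the lines that delete Hif1a and overlapped in the Ahr line. Ero1a fell by 2.31 ± 0.19 with Hif1a deleted (adjusted p = 2.58e-07) and by 1.71 ± 0.19 with both genes deleted (adjusted p = 5.33e-06).

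The lysyl hydroxylases Plod1 and Plod2, which prepare collagen for cross-linking, moved apart from each other and from P4ha1. Plod2 read 143, 149 and 138 CPM in the Hif1a flox libraries and 110.4, 112 and 105 in the Hif1a KO libraries. In the Ahr line it read 182, 163 and 169 CPM in flox and 96.02, 84.9 and 86.05 in KO libraries, and in the Hif1a Ahr line 167, 146 and 152 (flox) and 77.7, 76.5 and 75.5 (KO). All KO libraries lay below the flox libraries of their line. Plod2 fell by 0.39 ± 0.06 with Hif1a deleted (adjusted p = 1.26e-04), by 0.94 ± 0.07 with Ahr deleted (adjusted p = 8.42e-08) and by 1.02 ± 0.07 with both deleted (adjusted p = 2.03e-09). Plod1 read 26.8, 29.7 and 28.9 CPM in the Hif1a flox libraries and 40.04, 41.3 and 39.02 in the Hif1a KO libraries, all KO values above all flox values. It read 33.8, 32.6 and 32.9 CPM in the Ahr flox libraries and 26.6, 25.3 and 24.1 in the Ahr KO libraries, all KO values below all flox values. In the Hif1a Ahr line the ranges overlapped, at 32.5, 25.9 and 30.8 CPM (flox) and 32.2, 30.9 and 35.1 (KO). Plod1 thus rose by 0.49 ± 0.08 with Hif1a deleted (adjusted p = 6.81e-05), fell by 0.39 ± 0.08 with Ahr deleted (adjusted p = 0.00462) and stood at 0.14 ± 0.08 with both deleted (adjusted p = 0.185).

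Both lipid droplet genes fell, Hilpda further than Plin2. Hilpda encodes an inhibitor of the lipase that opens stored fat. It read 66.6, 56.5 and 71.4 CPM in the Hif1a flox libraries and 16.4, 11.2 and 13.7 in the Hif1a KO libraries, and 51.8, 77.7 and 56.02 (flox) and 18.8, 23.6 and 19.9 (KO) in the Hif1a Ahr line. Neither line showed overlap, with changes of -2.24 ± 0.17 and -1.57 ± 0.16 (adjusted p = 6.66e-08 and 2.32e-06). Ahr flox and Ahr KO libraries overlapped, at 53.05, 59.5 and 58.9 CPM (flox) and 57.7, 69.8 and 56.2 (KO). Plin2, a coat protein of the droplet, read 51.3, 46.3 and 53.4 CPM in the Hif1a flox libraries and 38.7, 32.5 and 36.05 in the Hif1a KO libraries. The Hif1a Ahr line had 39.2, 50.9 and 47.95 CPM in flox and 39.6, 35.7 and 32.98 in KO libraries, and in the Ahr line 37.3, 47.01 and 42.6 (flox) and 46.1, 52.8 and 48.9 (KO). Plin2 fell by 0.49 ± 0.10 in Hif1a KO cells (adjusted p = 0.00118). Its change in Hif1a Ahr KO cells was -0.35 ± 0.10 with overlapping libraries (adjusted p = 0.0153), and leaving out any of Hif1a Ahr flox replicates 2 (0.0804) and 3 (0.0524) and Hif1a Ahr KO replicates 2 (0.0515) and 3 (0.0788) ended the call, as did fitting the 6 libraries of that line alone (0.0657).

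Among genes of energy and ion balance, Ak4 had the lowest share left of all 32. It encodes an adenylate kinase of mitochondria. Ak4 read 72.9, 75.3 and 77.02 CPM in the Hif1a flox libraries and 3.48, 2.44 and 1.82 in the Hif1a KO libraries. For the Hif1a Ahr line, Ak4 read 68.8, 73.6 and 58.8 CPM in flox and 6.42, 2.89 and 4.23 in KO libraries, while the Ahr line gave 67.2, 82.4 and 78.5 (flox) and 88.95, 88.8 and 93.2 (KO). Ak4 fell by 4.86 ± 0.24 with Hif1a deleted (adjusted p = 2.61e-09) and 3.89 ± 0.23 with both genes deleted (adjusted p = 1.34e-08); in the Ahr line it stood at 0.25 ± 0.20, with the 3 KO libraries above the 3 flox libraries and an adjusted p of 0.542. Fam162a, a mitochondrial protein gene, read 139, 135 and 148 CPM in the Hif1a flox libraries and 31.7, 27.6 and 26.97 in the Hif1a KO libraries. Its values were 136, 142 and 144 CPM (flox) and 38.3, 22.9 and 25.97 (KO) in the Hif1a Ahr line and 116, 148 and 139 CPM (flox) and 143, 130.2 and 140.5 (KO) in the Ahr line. About the same share of Fam162a was left in both lines that delete Hif1a, 20.5% and 20.6%.

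Car9, an extracellular carbonic anhydrase often used as a marker of hypoxia, fell only moderately. It went from 6.77 ± 0.489 to 4.99 ± 0.0905 CPM in the Hif1a line and from 7.3 ± 0.298 to 4.22 ± 0.448 in the Hif1a Ahr line (mean ± SD, n = 3), which leaves 73.8% and 57.8%. Slc6a8, the creatine transporter, read 2.44, 2.45 and 2.91 CPM in the Hif1a flox libraries and 2.61, 1.96 and 2.05 in the Hif1a KO libraries. Values were 2.64, 3.19 and 2.33 CPM (flox) and 1.54, 2.61 and 1.77 (KO) in the Hif1a Ahr line and in the Ahr line 3.82, 3.04 and 2.801 (flox) and 3.32, 2.77 and 2.03 (KO). Its libraries overlapped in all 3 lines and it passed no test, with 95% intervals of the log2 change of -0.69 to 0.21 in Hif1a KO and -0.92 to -0.01 in Hif1a Ahr KO cells. Without Hif1a Ahr KO replicate 2 it was lower in the latter (-0.71; adjusted p = 0.0277).

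All 8 regulators of transcription fell in both lines that delete Hif1a, with median changes of -1.27 and -1.14, and 0 of 8 were called in Ahr KO cells. With the same test, 1 of the 8 had an unadjusted p under 0.05 there (Bhlhe40), beside 3432 of all 16743 genes. DESeq2 and limma voom called 0 of the 8 as well, while other fits called Bhlhe40 and Cited2 higher, as given below. Ankrd37, a gene of ankyrin repeats, went from 80.4 ± 6.93 to 3.802 ± 1.62 CPM in the Hif1a line and from 81.6 ± 10.3 to 6.33 ± 2.09 in the Hif1a Ahr line (mean ± SD, n = 3), changes of -4.40 ± 0.28 and -3.69 ± 0.26. Mxi1, an antagonist of MYC, read 57.3, 47.6 and 66.3 CPM in the Hif1a flox libraries and 12.6, 12.03 and 10.2 in the Hif1a KO libraries. In the other lines it read 50.4, 58.7 and 38.4 CPM (flox) and 9.97, 9.31 and 8.92 (KO) in the Hif1a Ahr line and 59.1, 56.95 and 54.98 CPM (flox) and 57.01, 64.7 and 54.1 (KO) in the Ahr line. It fell by 2.30 ± 0.14 and 2.39 ± 0.14 where Hif1a was deleted (adjusted p = 3.41e-09 and 2.65e-09) and overlapped in the Ahr line.

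Zfp395, a zinc finger gene, read 149, 133 and 164 CPM in the Hif1a flox libraries and 46.1, 43.8 and 39.1 in the Hif1a KO libraries. The Hif1a Ahr line gave 146, 151 and 119 CPM in flox and 35.1, 34.8 and 39.6 in KO libraries, and the Ahr line 153, 160.3 and 149 (flox) and 149.9, 159.9 and 141 (KO). The lines that delete Hif1a kept 28.97% and 26.3% of it, with all KO values below all flox values, and the Ahr line overlapped. The small Maf factor Maff kept 33.7% and 38.4%, the zinc finger gene Zfp292 51.3% and 54.5%, and Sap30, a subunit of the Sin3 histone deacetylase complex, 65.2% and 53.8%. Bhlhe40, a repressor that in lymphocytes also acts on cytokine genes, kept 51.7% and 69.8%. Cited2, whose product competes with HIF-1 alpha for its coactivators, kept 60.3% and 66.1%. Bhlhe40 and Cited2 stood at 0.25 ± 0.11 and 0.23 ± 0.12 in Ahr KO cells, and with same-numbered replicates as pairs both rose there (adjusted p = 0.0118 and 0.0188). Bhlhe40 also passed as higher in the fit of the 6 libraries of the Ahr line alone (adjusted p = 0.0432).

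Genes of growth control and signalling held both strong falls and no detectable change. Mif encodes macrophage migration inhibitory factor, a secreted cytokine. It read 579.7, 596 and 619.7 CPM in the Hif1a flox libraries and 113, 109 and 102 in the Hif1a KO libraries. For the Hif1a Ahr line, Mif read 549, 568 and 698 CPM in flox and 152, 162 and 186 in KO libraries, and in the Ahr line 611, 605 and 589.7 (flox) and 544, 562 and 571 (KO). The Hif1a KO libraries were the lowest of all 18 and the Hif1a Ahr KO libraries the next, with changes of -2.47 ± 0.09 (adjusted p = 2.14e-12) and -1.86 ± 0.09 (adjusted p = 6.09e-11). Mif has pseudogene copies, and the 2 found under a Mif symbol, Mif-ps3 and Mif-ps7, held 0 counts in every library. Copies under other names were not searched. The transcript annotation is not given, so these 0 counts cannot show whether reads of copies were counted as Mif. Ndrg1, a stress-induced gene linked to differentiation, read 184, 169.5 and 240.4 CPM in the Hif1a flox libraries and 45.6, 38.7 and 40.5 in the Hif1a KO libraries. Values were 168, 186 and 132 CPM (flox) and 58.99, 57.8 and 74.8 (KO) in the Hif1a Ahr line and in the Ahr line 189, 229 and 220.3 (flox) and 277, 277 and 262 (KO). It fell by 2.25 ± 0.15 and 1.34 ± 0.14 in the lines that delete Hif1a and stood at 0.35 ± 0.14 in Ahr KO cells (adjusted p = 0.151), where all KO values were above all flox values. The fit of the Ahr line's 6 libraries alone called it higher (adjusted p = 0.0163).

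Errfi1 encodes Mig-6, a feedback inhibitor of the EGF receptor family. It read 505, 494 and 548 CPM in the Hif1a flox libraries and 363, 395 and 321 in the Hif1a KO libraries. In the Ahr line it read 834, 604 and 719 CPM in flox and 288, 210.2 and 197 in KO libraries, and in the Hif1a Ahr line 537, 553 and 657 (flox) and 165, 122 and 158 (KO). KO lay below flox in each line, and the 3 Hif1a Ahr KO libraries were the lowest of all 18. Errfi1 fell by 1.63 ± 0.15 with Ahr deleted (adjusted p = 7.59e-06), by 1.97 ± 0.15 with both deleted (adjusted p = 7.53e-08) and by 0.52 ± 0.15 with Hif1a deleted (adjusted p = 0.0124). Leaving out Hif1a KO replicate 3 ended the call in Hif1a KO cells (-0.44; adjusted p = 0.0589), as did testing without a filter on low counts (0.0563). Ccng2, an atypical cyclin tied to growth arrest, went from 75.2 ± 8.2 to 56.4 ± 4.21 CPM in the Hif1a line (mean ± SD, n = 3) and kept 75.1% there and 53.4% in the Hif1a Ahr line. Its fall in Hif1a KO cells did not pass when Hif1a flox replicate 3 (adjusted p = 0.0871), Hif1a KO replicate 1 (0.0548) or Hif1a KO replicate 3 (0.0608) was left out. In Ahr KO cells Ccng2 stood at -0.29 ± 0.12 (adjusted p = 0.186), a fall with same-numbered replicates as pairs (adjusted p = 0.0209).

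Btg1, an antiproliferative gene, read 503, 462 and 376 CPM in the Hif1a flox libraries and 496, 529 and 350.5 in the Hif1a KO libraries. The Ahr line gave 384, 468 and 510.2 CPM (flox) and 381, 519 and 524 (KO) and the Hif1a Ahr line 446, 380.1 and 489 (flox) and 426, 430.1 and 572 (KO). All groups of Btg1 overlapped, and the 95% interval of its log2 change in Hif1a KO cells was -0.34 to 0.42. Rragd, a small GTPase that signals amino acid supply to mTORC1, was near the limit of detection, with 0.0947, 0.198 and 0.208 CPM in the Hif1a flox libraries and 0.156, 0.188 and 0.0884 in the Hif1a KO libraries. It read 0.155, 0.171 and 0.218 CPM (flox) and 0.348, 0.0774 and 0.169 (KO) in the Ahr line and 0.1796, 0.113 and 0.218 (flox) and 0.179, 0.124 and 0.175 (KO) in the Hif1a Ahr line. The groups overlapped in all 3 lines, the interval in Hif1a KO cells was -1.23 to 0.81, and no change was detectable at this depth.

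The remaining 7 genes have varied roles. Narf, which binds the precursor of lamin A, read 78.4, 72.3 and 88.8 CPM in the Hif1a flox libraries and 15.2, 15.2 and 12.1 in the Hif1a KO libraries. Values were 74.8, 81.5 and 68.6 CPM (flox) and 15.8, 11.4 and 14.4 (KO) in the Hif1a Ahr line and in the Ahr line 82.5, 81.9 and 77.8 (flox) and 75.1, 82.4 and 75.7 (KO). Its changes of -2.50 ± 0.11 and -2.43 ± 0.11 were of like size in both lines that delete Hif1a (adjusted p = 2.71e-11 and 6.09e-11), and the Ahr line overlapped. Tpd52, a regulator of vesicle traffic, read 50.5, 47.5 and 46.7 CPM in the Hif1a flox libraries and 35.5, 36.4 and 35.9 in the Hif1a KO libraries, 49.99, 45.8 and 48.9 (flox) and 31.8, 28.9 and 31.7 (KO) in the Hif1a Ahr line. In the Ahr line Tpd52 read 49.6, 51.8 and 53.8 CPM in flox and 43.2, 46.8 and 43.1 in KO libraries. All 3 lines were without overlap, with changes of -0.42 ± 0.06, -0.65 ± 0.06 and, in Ahr KO cells, -0.22 ± 0.06 (adjusted p = 0.0297). This small fall in the Ahr line did not pass when any of Ahr flox replicates 2 (0.0586) and 3 (0.142) and Ahr KO replicates 1 (0.106) and 3 (0.115) was left out, nor without a filter on low counts (0.114).

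Tmem45a, a membrane protein gene, rested on few counts. The 3 Hif1a flox libraries summed to 16 counts and the 3 Hif1a KO libraries to 1, a ratio of 0.0624 (exact 95% interval 0.00149 to 0.402). In the Hif1a Ahr line 25 counts stood beside 3, a ratio of 0.12 (0.0231 to 0.392), and these intervals cover counting error only. Since Tmem45a reached the filter's level in 0 of the 6 libraries with Hif1a deleted, its calls in both lines (adjusted p = 0.0185 and 0.0173) only describe these libraries. The first did not pass when Hif1a flox replicate 3 (0.148), Hif1a KO replicate 2 (0.0669) or Hif1a KO replicate 3 (0.0632) was left out, and the second when Hif1a Ahr flox replicate 1 (0.0537), Hif1a Ahr flox replicate 2 (0.0563) or Hif1a Ahr KO replicate 2 (0.0747) was. Ppfia4, which encodes the scaffold protein liprin alpha-4, read 0.189, 0.144 and 0.189 CPM in the Hif1a flox libraries and 0.0519, 0.0341 and 0.141 in the Hif1a KO libraries. In the Hif1a Ahr line it read 0.1796, 0.375 and 0.237 CPM in flox and 0.0538, 0.177 and 0.1399 in KO libraries, and in the Ahr line 0.345, 0.152 and 0.236 (flox) and 0.312, 0.174 and 0.282 (KO). Its KO libraries lay below the flox libraries in both lines that delete Hif1a, at -1.18 ± 0.55 and -1.07 ± 0.48, but neither change passed the test (adjusted p = 0.105 and 0.1003). In Hif1a KO cells the adjusted p was 0.0454 with same-numbered replicates as pairs and 0.0277 without Hif1a KO replicate 3, and Ppfia4 too entered the test only through libraries with Hif1a intact.

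Wsb1, part of a ubiquitin ligase, read 103, 101 and 101 CPM in the Hif1a flox libraries and 97.3, 90.8 and 90.7 in the Hif1a KO libraries. Values were 102, 99.4 and 107 CPM (flox) and 94.9, 103 and 104 (KO) in the Hif1a Ahr line and in the Ahr line 118, 118 and 109.7 (flox) and 119, 105 and 114 (KO). The Hif1a KO libraries lay just below the flox libraries, at -0.13 ± 0.06 with a 95% interval of -0.25 to -0.01, and the test was not passed (adjusted p = 0.0918). Fut11, a fucosyltransferase gene, read 18.96, 20.8 and 21.96 CPM in the Hif1a flox libraries and 20.8, 22.1 and 19.2 in the Hif1a KO libraries. The other lines gave 23.1, 22.2 and 23.5 CPM (flox) and 20.7, 23.3 and 20.9 (KO) in the Ahr line and 21.03, 22.1 and 19.4 CPM (flox) and 18.9, 20.1 and 22.3 (KO) in the Hif1a Ahr line. Fut11 overlapped in every line, and its interval in Hif1a KO cells was -0.16 to 0.18. Nrn1, which encodes neuritin, read 0.701, 0.812 and 0.794 CPM in the Hif1a flox libraries and 0.674, 0.887 and 1.02 in the Hif1a KO libraries. It read 0.7601, 0.665 and 0.564 CPM (flox) and 0.843, 0.987 and 1.03 (KO) in the Ahr line and 0.898, 0.9002 and 0.765 (flox) and 1.11, 1.19 and 1.22 (KO) in the Hif1a Ahr line. Where Ahr was deleted all KO values of Nrn1 were above all flox values (0.52 ± 0.20 and 0.46 ± 0.19), without passing the test (adjusted p = 0.125 and 0.0732).

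Whether the Hif1a and Ahr deletions differed in their effect was tested in the same fit. The Hif1a KO effect was lower than the Ahr KO effect for 19 of 32 and higher for 3 (Errfi1, Plod1 and Plod2), beside 15.7% and 16.6% of all genes. With library totals alone these were 18 and 3, while the median difference over all genes moved from -0.01 to 0.13. The smallest adjusted p belonged to Mif (difference -2.36 ± 0.12; adjusted p = 6.07e-10), Narf (-2.44 ± 0.15; 5.25e-09), P4ha1 (-2.94 ± 0.19; 1.12e-08) and Ak4 (-5.11 ± 0.31; 4.30e-08). For the 3 in the other direction the differences were 1.11 ± 0.21 (Errfi1), 0.88 ± 0.11 (Plod1) and 0.55 ± 0.09 (Plod2). Car9 passed narrowly (-0.41 ± 0.14; adjusted p = 0.0332) and did not pass when any 1 of these was left out: Ahr flox replicates 2 (0.0808) and 3 (0.0805), Ahr KO replicates 1 (0.0720) and 3 (0.0551), Hif1a flox replicates 2 (0.0775) and 3 (0.0724), and Hif1a KO replicates 1 (0.0691) and 2 (0.0588). It also did not pass with library totals alone (0.241) or without a filter on low counts (0.162). Tpd52 (-0.20 ± 0.08; adjusted p = 0.0731) passed only with upper-quartile scaling (0.0492) or a filter of at least 1 CPM in 3 libraries (0.0369). Tmem45a missed the threshold (adjusted p = 0.0724) and passed it without Hif1a flox replicate 2 (0.0427).

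The effect of deleting both genes against that of Hif1a alone was compared across the lines, which differ in their mice as well as in their genotype. It was lower in the Hif1a Ahr line for 3 of 32 (Errfi1, Plod2 and Plod1) and higher for 2 (Mif and Ndrg1), beside 5.12% and 4.53% of all genes. Errfi1 differed by -1.45 ± 0.21 (adjusted p = 0.00121) and Plod2 by -0.63 ± 0.09 (adjusted p = 9.13e-04), and both also fell in Ahr KO cells. Plod1 differed by -0.36 ± 0.11 (adjusted p = 0.0447); that call was lost in 15 of the 18 fits that left out 1 library, with adjusted p up to 0.121 (without Hif1a Ahr KO replicate 2), and was kept without Hif1a Ahr flox replicate 2, Hif1a Ahr KO replicate 3 or Hif1a flox replicate 2. It was also lost with library totals alone (0.0562) and without a filter on low counts (0.0811). Mif differed by 0.61 ± 0.12 (adjusted p = 0.00568) and Ndrg1 by 0.91 ± 0.20 (adjusted p = 0.0112), so that both fell less in the line that deletes both genes. Hilpda (0.66 ± 0.23), Ak4 (0.97 ± 0.32), Bhlhe40 (0.43 ± 0.15), Ccng2 (-0.49 ± 0.18) and P4ha2 (-1.18 ± 0.38) missed the threshold in the fit of all libraries and passed it under some alternatives. DESeq2 called Hilpda (adjusted p = 0.0273), Ak4 (0.0105) and P4ha2 (0.0264), and limma voom called P4ha2 (0.0250). Without Hif1a Ahr flox replicate 2 the genes that passed were Hilpda (adjusted p = 0.00846) and Bhlhe40 (0.0108), and without Hif1a KO replicate 1 Hilpda (0.0437) and Ak4 (0.0331), so that 4 of 32 were higher in either case. Ak4 also passed without Hif1a Ahr KO replicate 2 (0.0189), Bhlhe40 without Hif1a flox replicate 2 (0.0401), Ccng2 without Ahr flox replicate 1 (0.0414), and P4ha2 without Hif1a Ahr KO replicate 1 (0.0113) or Hif1a KO replicate 3 (0.0411).

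**Figure D3:**
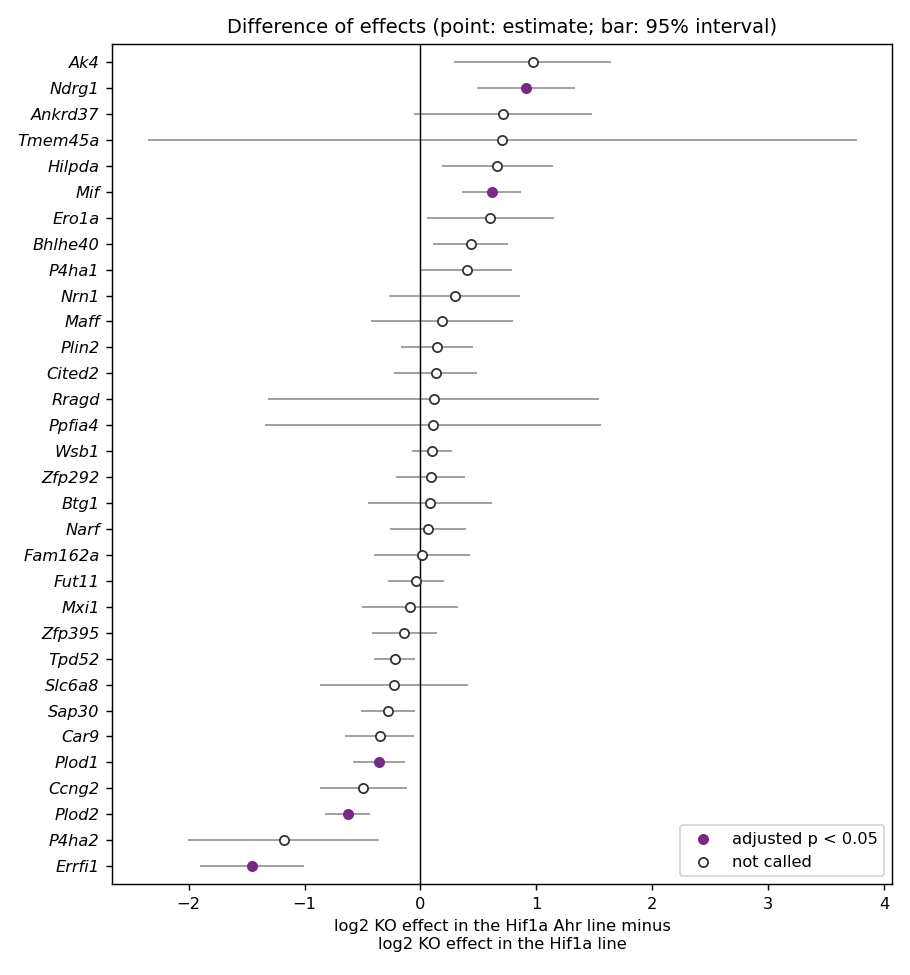
Difference between the log2 KO effect in the Hif1a Ahr line and that in the Hif1a line for each of the 32 genes (points, estimates; bars, 95% intervals; filled, adjusted p under 0.05). Ndrg1 (0.91) and Mif (0.61) stand above 0 and Errfi1 (-1.45), Plod2 (-0.63) and Plod1 (-0.36) below it as the 5 called genes.

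Beside the 32, the genes of the HIF pathway itself also moved. Of 10 HIF subunits, partners and oxygen sensors, 6 fell and 2 rose in Hif1a KO cells, beside 17.8% and 17.6% of all genes. In Hif1a Ahr KO cells 5 fell and 2 rose, beside 16.5% and 14.8% of all genes. In Ahr KO cells 0 were called, while 4.78% of all genes fell and 2.13% rose. At an unadjusted p under 0.05, edgeR's test gave 1 of the 10 in Ahr KO cells, beside 3432 of all 16743 genes. Egln3, an oxygen-sensing prolyl hydroxylase, fell by 4.67 ± 0.31 and 3.77 ± 0.30, and Egln1, another, by 1.38 ± 0.08 and 1.22 ± 0.08. Epas1, which encodes HIF-2 alpha, fell in Hif1a KO cells from 9.41 ± 2.63 to 1.98 ± 0.419 CPM (adjusted p = 0.00293) and stood at -0.85 ± 0.47 with both genes deleted (adjusted p = 0.193). HIF targets of sugar metabolism fell in 19 of 20 in both lines that delete Hif1a, with medians of -2.17 and -1.92, against -0.96 and -1.05 for the 32 genes. Of 15 further HIF targets tested, such as Vegfa and Bnip3, 13 fell in Hif1a KO cells (median -1.45), and 11 fell and 2 rose, Pam and Ier3, in Hif1a Ahr KO cells (median -1.43). In Ahr KO cells 1 of 20 and 1 of 15 fell, close to the 4.78% of all genes that fell there. No test was made of the differences between these lists.

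**Figure D4:**
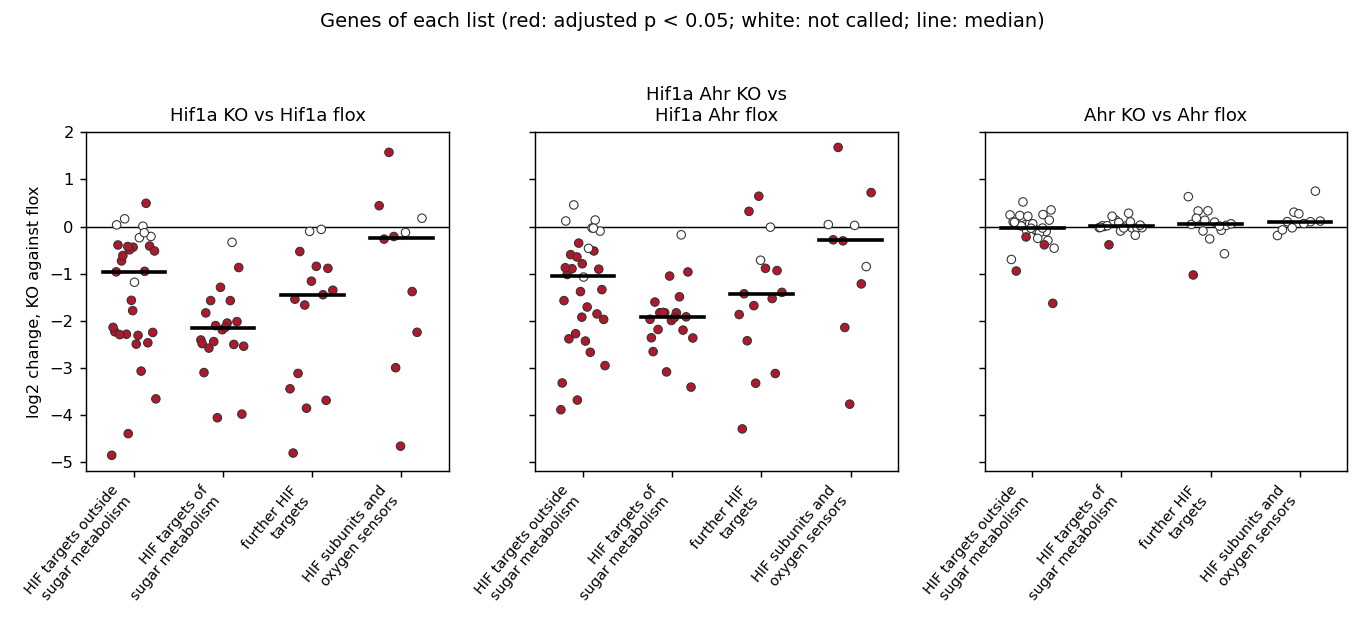
Log2 change of KO against flox in each line for the 32 HIF targets outside sugar metabolism, 20 HIF targets of sugar metabolism, 15 further HIF targets and 10 HIF subunits and oxygen sensors (points, genes; filled, adjusted p under 0.05; horizontal bar, median). The 32 spread from -4.86 to 0.49 in the Hif1a line with a median of -0.96, while the sugar metabolism list has a median of -2.17, and in the Ahr line all medians lie near 0.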

How the data were processed

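Per the submitters' processing notes, reads were handled with Trim Galore 0.6.4, kallisto 0.4.6 and edgeR 3.17 on GRCm39; settings and the transcript annotation are not given in the sources used here. The deposited tables hold expected counts per gene, not normalised (65.5% to 67.8% of values above 0 are not whole), and log2 CPM, which the counts with a prior count of 2 gave back with a largest difference of 0. The library protocol is strand-specific, per the labels' protocols.

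Expected counts were rounded to whole numbers, filtered with filterByExpr, scaled by TMM and fitted with 1 mean per group over 18 libraries (edgeR 4.0.16, R 4.3.3), then tested by robust quasi-likelihood F tests (2-sided, 12 residual degrees of freedom, common biological coefficient of variation 0.117) and Benjamini-Hochberg adjustment over 16743 genes. The code was tested on simulated data. CPM values carry TMM scaling. SE is the log2 change divided by the square root of F. Alternatives used limma 3.58.1 (voom), DESeq2 1.42.0, other scalings, filters and cuts, single lines, a replicate block, and leaving out each library.

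Genes were matched by identifier; Ero1a is listed there under an older symbol. The genes, lists and rules were chosen with earlier results of these data known. Values by library are given for up to 2 genes of each role with the smallest adjusted p in Hif1a KO, genes that did not fall in both lines with Hif1a deleted, and up to 4 called genes in Ahr KO and in each difference of effects. The main tests used no pairs. A line's replicate numbers were judged fit as pairs where every same-numbered KO and flox pair had deviations correlated above 0.1 over 9986 genes. That held in the Hif1a (0.296 to 0.53) and Ahr lines (0.333 to 0.534) and failed in the Hif1a Ahr line (0.067 to 0.448). The replicate block, an alternative fit, paired same-numbered libraries in every line. In Ahr KO cells it called 1388 genes lower and 1033 higher, against 800 and 357 in the main test. The labels do not tie replicates to separate mice, so p-values measure the spread between these samples, which may be technical.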

Additional observations from a re-analysis of the deposited data

Results flagged for a closer look

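A total of 5 genes had effects of the KO that differed between the Hif1a Ahr line and the Hif1a line, by a test of the difference itself (edgeR's quasi-likelihood test, adjusted over all genes). The log2 difference, effect in the Hif1a Ahr line minus effect in the Hif1a line, was -1.45 for Errfi1 (adjusted p = 0.00121), -0.63 for Plod2 (9.13e-04), -0.36 for Plod1 (0.0448), 0.61 for Mif (0.00568) and 0.91 for Ndrg1 (0.0112). The Plod1 difference had adjusted p from 0.0506 to 0.121 in the 15 fits without 1 library in which its call was lost.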

How the results depend on the processing

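The counts of the 32 genes that fell in Hif1a KO and in Hif1a Ahr KO cells were 24 each, and 22 to 25 and 22 to 26 under the other scalings, tools, filters, the fit of a line alone and the replicate block. Leaving out 1 library gave 22 to 24 for each, 3 to 5 lower in Ahr KO cells (4 with all libraries), and 6 to 8 mostly and 15 to 16 partly lost. The replicate block gave 2 of 32 higher in Ahr KO cells instead of 0, as did the fit of the Ahr line's 6 libraries alone (Bhlhe40 and Cited2, and Bhlhe40 and Ndrg1). The block also added P4ha2 (adjusted p = 0.0339) and Ccng2 (0.0209) as lower there. P4ha2 was added as lower by the fit of the Ahr line's 6 libraries (adjusted p = 7.84e-05) and by limma voom (0.0220) too. For the Hif1a Ahr effect minus the Hif1a effect, the counts of 3 lower and 2 higher became 5 and 5 with the replicate block (adding Ccng2, adjusted p = 0.00674, and P4ha2, 0.0170, as lower and Ero1a, 0.00199, Hilpda, 0.00135, and Bhlhe40, 0.00322, as higher), 4 higher with DESeq2, and 2 to 4 higher without 1 library. In the Hif1a Ahr line, whose numbers failed the pairing rule, the block added Slc6a8 (adjusted p = 0.0249) and Ppfia4 (0.0430) as lower. The boundary between mostly and partly lost set those counts most: 14 and 10 at a log2 change of -1, 2 and 22 at -3, and 8 and 16 at -2. Over single genes and comparisons, 41 leave-one-out values lost a call, 13 gained one and 2826 did neither, beside 9, 22 and 1481 under other settings; 0 calls turned direction, where a change of sign without a call counts as none. The comparison of the 3 flox groups has no value with the block, which absorbs it. The causes of these shifts were not tested. Precision for Tmem45a, Ppfia4 and Rragd was limited by counts.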
